A study of Verbena bonariensis with 6 samples.

Results

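The CAMTA family (calmodulin-binding transcription activators) of Verbena bonariensis leaves was represented by 31 of the 9740 transcript clusters of the deposited table. A cluster is the unit that fills the table's gene column, and the 31 are all those whose family column reads CAMTA. Their best matches in the NR protein database were 3 proteins of Sesamum indicum (sesame). The match was CAMTA1 for 1 cluster, CAMTA2 for 20 clusters and CAMTA4 for 10 clusters. The plants were 3-month-old seedlings of the cultivar Finesse, raised under a 16 h photoperiod with 25 °C by day and 16 °C by night. Cold leaves came from seedlings chilled to 4 °C for 24 h and brought to -4 °C for a further 4 h, by which time wilting had begun, and control leaves came from seedlings left under the growing conditions. Each group had 3 libraries, which the labels call biological replicates without giving the number of plants in each. The comparison addresses the response of leaf transcripts to low temperature.

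CAMTA proteins link calcium signals to transcription. They bind DNA through a CG-1 domain, carry a TIG domain and ankyrin repeats, and bind the calcium sensor calmodulin through IQ motifs and a neighbouring calmodulin-binding stretch. In Arabidopsis, CAMTA1, CAMTA2 and CAMTA3 act together in the induction of CBF (DREB1) genes by cold and hold back salicylic acid immunity in warm plants. The numbers given to sesame proteins need not name the same genes as the Arabidopsis numbers. The single CAMTA1 cluster had Arabidopsis CAMTA3 as its best Swiss-Prot match. Of the 20 CAMTA2 clusters, 12 were matched to Arabidopsis CAMTA3 and 8 to Arabidopsis CAMTA2, and all 10 CAMTA4 clusters were matched to Arabidopsis CAMTA4. Names below are those of the sesame match.

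The table held 991180 to 1213366 estimated counts per control library and 722556 to 791041 per cold library. Whole-library totals, estimated from count, FPKM and length, were 16947932 to 20692762 for control and 13074360 to 14319243 for cold. Replicates differed by more than sampling noise. Among transcription factors that mark leaf tissue, clusters matched to the mesophyll regulators GLK summed to between 120 and 127 FPKM in control and to between 106 and 107 in cold, with none of the 31 at 0. The 27 clusters of YABBY, which sets leaf polarity, summed to between 33.7 and 39.1 FPKM in control and to between 55.0 and 63.2 in cold. The 12 stomatal clusters summed to between 13.4 and 14.5 FPKM in control and to between 16.1 and 20.1 in cold, with 1 of them at 0. Clusters of floral organ regulators, 2 in number, summed to between 1.2 and 1.83 FPKM in control and to between 0 and 0.08 in cold. At least 10 counts in every library were held by 6 of the 31 GLK, 4 of the 27 YABBY and 2 of the 12 stomatal clusters. No cluster matched the shoot meristem regulators searched. The part of these differences in the results below was not tested. In whole leaves, fewer cells of a type and less RNA per cell cannot be told apart.

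All 31 clusters were annotated with a CG-1 domain, a TIG domain, ankyrin repeats and an IQ motif. The annotation listed a further calmodulin-binding domain for all 20 CAMTA2 clusters and for none of the CAMTA1 or CAMTA4 clusters. It also listed a cytochrome P450 domain for all 10 CAMTA4 clusters, and a leukocidin/hemolysin toxin family for 6 of them. Neither was listed for a CAMTA1 or CAMTA2 cluster. The origin of these 2 entries was not tested. Cluster lengths ran from 3286 to 5944 bases. The predicted coding stretch was broken into 2 segments in 24 clusters, which were all 20 CAMTA2 clusters and 4 of the CAMTA4 clusters. The CAMTA1 cluster had a coding stretch of 3035 bases in 1 segment. It ran to the last base of the 3465-base cluster, so it may be incomplete there.

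Summed over the clusters of each match, all 3 CAMTA transcripts were lower in cold leaves. The CAMTA4 sum fell to 18.4% of its control level, the CAMTA2 sum to 30.8% and the CAMTA1 level to 38.6%. Levels of these sums are normalized CPM, the counts scaled to the size of the library's table by the TMM method of edgeR. Reads of near-identical transcripts can be divided among several clusters, and a sum over 1 match is not affected by how they are divided within it.

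The CAMTA1 level, carried by 1 cluster, was 1339, 1325 and 1326 normalized CPM in control replicates 1 to 3 and 492, 531 and 518 in cold replicates 1 to 3. The control libraries lay within a narrow band, and every cold library was below every control library. The change was -1.37 on the log2 scale (SE 0.05, adjusted p = 7.94e-08, edgeR quasi-likelihood test). The CAMTA2 sum amounted to 1984, 1804 and 1889 normalized CPM in control and to 522, 570 and 659 in cold. Its highest cold library stood well under its lowest control library. The log2 change was -1.69 (SE 0.08, adjusted p = 6.40e-07, edgeR). For the CAMTA4 sum, control libraries had 2027, 1925 and 2055 normalized CPM and cold libraries 309, 372 and 426. The groups were again apart, with a log2 change of -2.44 (SE 0.09, adjusted p = 1.77e-07, edgeR). The same test was run on all 2371 sums with enough counts. The share below control at the threshold of 0.05 was 36.7%, and 40.5% had every cold library below every control library. The median log2 change over all 2371 sums was -0.07. Ranked from the most reduced sum, CAMTA4 was at place 233, CAMTA2 at 388 and CAMTA1 at 506 of 2371.

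**Figure D1:**
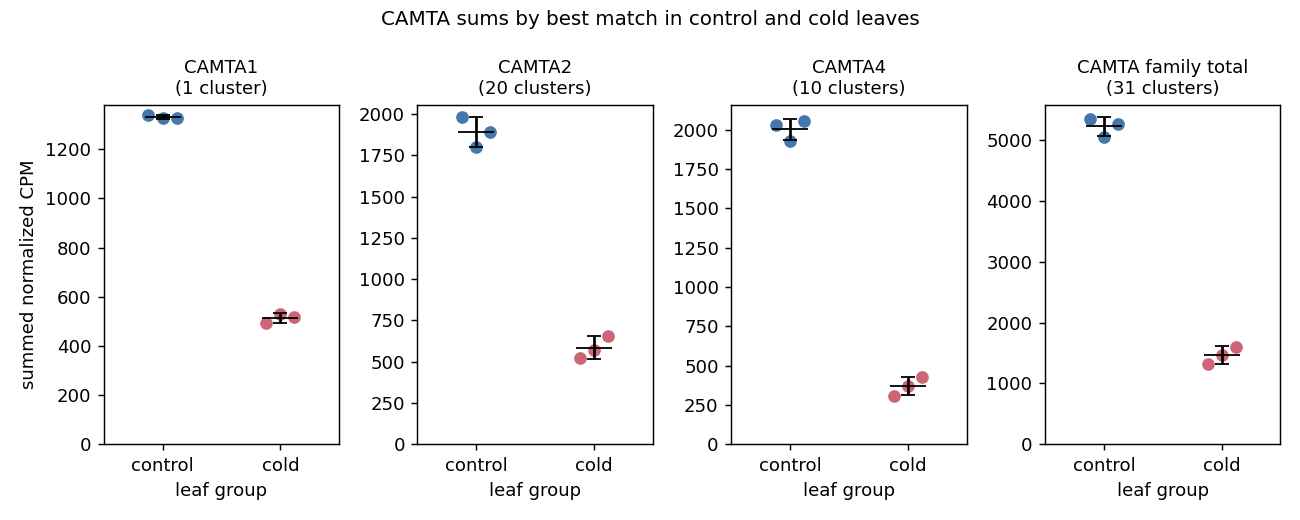
Summed normalized CPM of the clusters matched to CAMTA1, CAMTA2 and CAMTA4 and of the whole family. Points are libraries, and bars are the mean and SD of 3 libraries. In each panel the 3 cold points lie below the 3 control points, and the family mean goes from 5225 to 1466.

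The family total over all 31 clusters came to 5350, 5055 and 5271 normalized CPM in the control libraries and to 1323, 1473 and 1603 in the cold libraries. Cold leaves thus held 28.1% of the control level, a difference of -1.84 on the log2 scale. The exact two-sided permutation test of this single value gave p = 0.1, the smallest p that 3 against 3 libraries allow. The estimate depends on the scaling. The log2 difference was -2.13 with the totals of the table, -2.21 with the whole-library totals and -2.27 for summed FPKM. Cold libraries were lower under each of these scalings.

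Per length, the order of the 3 transcripts was not the same in the groups. In control leaves CAMTA4 was the highest, at 41.5 ± 1.49 FPKM (SD, n = 3), followed by CAMTA2 at 33.0 ± 1.60 and CAMTA1 at 26.6 ± 0.15. No library of one of these transcripts overlapped those of the next. In cold leaves CAMTA1 was at 7.91 ± 0.193 FPKM, CAMTA2 at 7.38 ± 1.04 and CAMTA4 at 5.80 ± 0.903. The cold libraries of CAMTA2 ran from 6.58 to 8.55 FPKM and overlapped those of both neighbours, which ran from 7.69 to 8.05 for CAMTA1 and from 4.94 to 6.74 for CAMTA4. CAMTA1 and CAMTA4 did not overlap in cold.

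Ratios between the sums do not depend on the scaling of a library. The log2 ratio of CAMTA4 to CAMTA1 counts averaged 0.59 ± 0.05 over control and -0.49 ± 0.20 over cold libraries (SD, n = 3), differing by -1.08. Every control library had more CAMTA4 than CAMTA1 counts, and every cold library had fewer. The log2 ratio of CAMTA4 to CAMTA2 went from 0.08 ± 0.05 to -0.67 ± 0.08, a difference of -0.75. The log2 ratio of CAMTA2 to CAMTA1 went from 0.51 ± 0.06 to 0.18 ± 0.15, a difference of -0.33. The groups did not overlap in any of the 3 ratios, and each exact two-sided permutation test over 3 against 3 libraries gave p = 0.1, both before and after Benjamini-Hochberg adjustment over the 3, which is the smallest p possible. As shares of the family FPKM, CAMTA4 went from 41.1% to 27.4%, CAMTA1 from 26.3% to 37.7% and CAMTA2 from 32.6% to 34.9%.

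At the level of single clusters, 18 of the 31 passed the edgeR filter on low counts, and 4 of these 18 (22.2%) had an adjusted p under 0.05 and a lower level in cold. Among all 5004 clusters tested 23.6% were lower, so the share of CAMTA clusters was near the background. The 4 were the CAMTA1 cluster, a pair of CAMTA2 clusters and the largest CAMTA4 cluster. None of the 18 was higher, against 21.9% of all tested clusters. At an unadjusted p under 0.05 there were 7, of either direction. The share of all tested clusters at that cutoff was not worked out, but 2276 of the 5004 already had an adjusted p under 0.05. DESeq2 called 5 lower and 2 higher, against 28.3% and 27.9% of all tested clusters. Limma on log2(FPKM + 1) called 8 lower and 0 higher, against 35.2% and 23.9%. The median log2 change of the 18 was -1.59, beside -0.14 over all tested clusters. Of the 18, 14 were negative, against 2645 of all 5004. The CAMTA2 match was shared by 12 of the 18, so they cannot be counted as separate genes. Since clusters can pass the filter through the group in which they are high, these counts do not stand for all 31. In 8 of the 18 every cold library was below every control library, a pattern of 34.3% of all tested clusters, and in 2 it was above, a pattern of 29.6%.

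**Figure D2:**
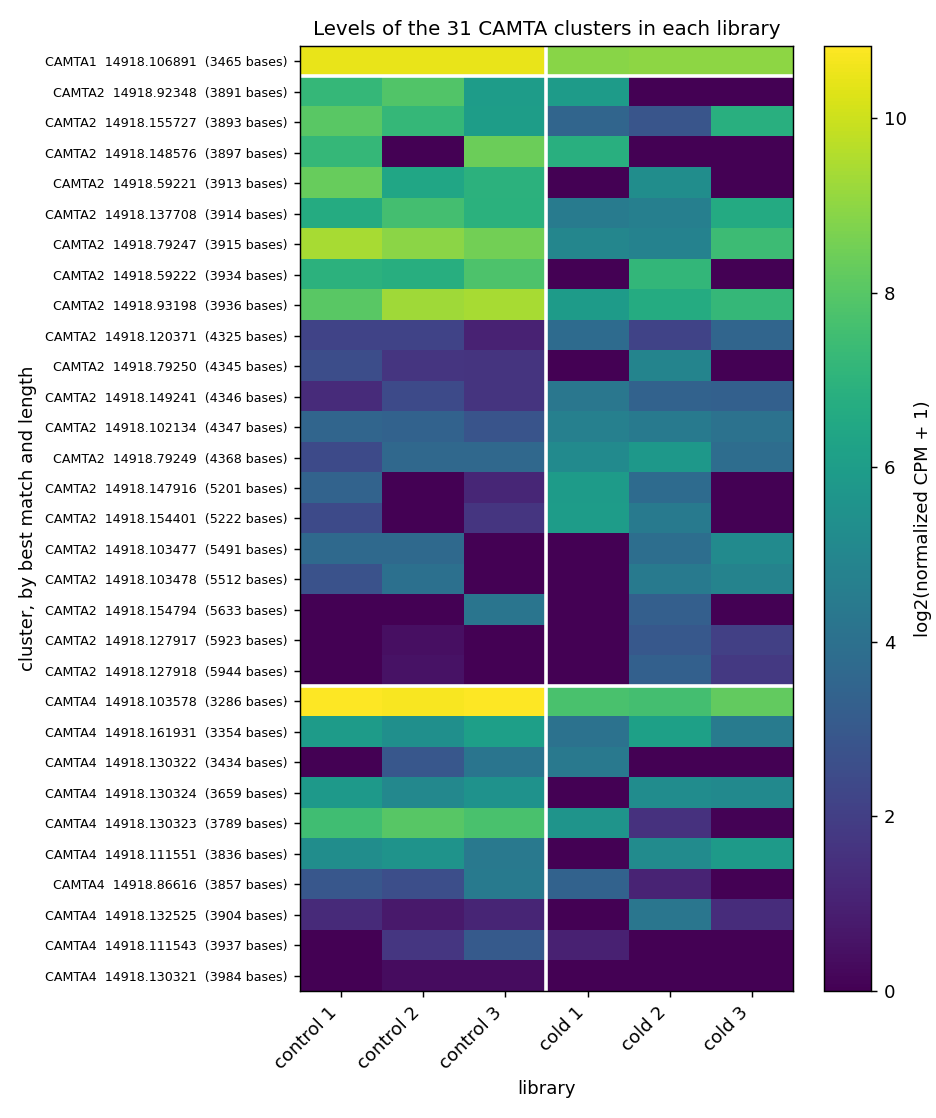
Level of each of the 31 clusters in each library as log2(normalized CPM + 1), ordered by match and length, with white lines between the matches and between control and cold. The CAMTA1 cluster and the 3286-base CAMTA4 cluster are the brightest rows of the control side, and the CAMTA2 clusters of 4325 bases and more are dark there.

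Levels of single clusters are on the scale of the fit of all clusters, which differs slightly from that of the sums. The CAMTA1 cluster, Cluster-14918.106891, had 1418, 1424 and 1421 normalized CPM in control and 482, 510 and 504 in cold. On this scale its log2 change was -1.51 (SE 0.05, adjusted p = 1.17e-05, edgeR). All 3 control libraries lay within a few CPM of each other. Cluster-14918.103578, of 3286 bases and matched to CAMTA4, had 1802, 1677 and 1813 normalized CPM in control and 209, 191 and 298 in cold. It fell by 2.92 on the log2 scale (SE 0.18, adjusted p = 0.000102, edgeR). Its FPKM went from 35.0 to 3.91.

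Of the CAMTA2 clusters, Cluster-14918.93198 had 264, 621 and 679 normalized CPM in control and 60.7, 99.8 and 146 in cold. Control replicate 1 was the lowest of its group, and the groups did not overlap. Its log2 change was -2.35 (SE 0.48, adjusted p = 0.0103, edgeR). Cluster-14918.79247 had 683, 490 and 371 normalized CPM in control and 30.5, 26.7 and 170 in cold, where replicate 3 stood above the other two. Its log2 change was -2.75 (SE 0.79, adjusted p = 0.0339, edgeR). This call was lost, with an adjusted p between 0.0640 and 0.0917 in edgeR, when any of control replicates 1, 2 and 3 or cold replicates 1 and 2 was left out.

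**Figure D3:**
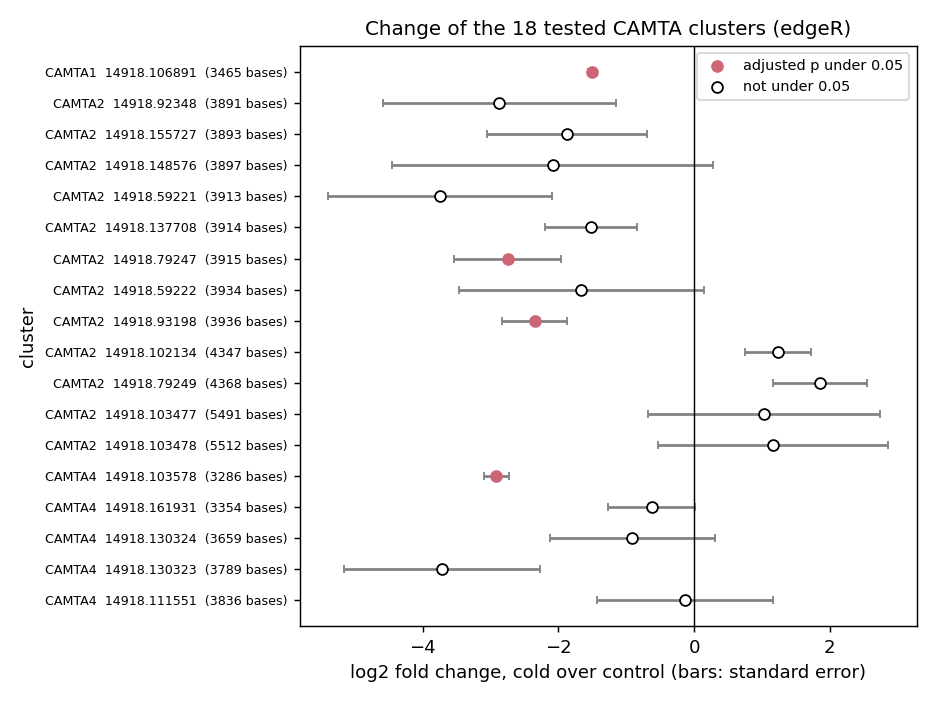
Log2 fold change in cold over control for the 18 tested clusters, with the standard error as a bar and filled points for an adjusted p under 0.05 in edgeR. The 4 filled points lie between -2.92 and -1.51, and the 4 CAMTA2 clusters of 4347 bases and more are the points to the right of 0.

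Among clusters that did not pass the threshold, Cluster-14918.130323, matched to CAMTA4, had 179, 256 and 210 normalized CPM in control and 47.9, 1.90 and 0.0409 in cold. The groups did not overlap, and the cold libraries were far from each other. The adjusted p was 0.0849 in edgeR and 0.0187 in DESeq2, and it was 0.00172 in edgeR without cold replicate 1. Cluster-14918.137708, matched to CAMTA2, had 100.5, 191 and 119 normalized CPM in control and 21.6, 24.3 and 96.6 in cold (adjusted p = 0.121, edgeR). Without cold replicate 3, its highest cold library, the adjusted p was 0.00947. Cluster-14918.155727, a CAMTA2 cluster whose groups overlapped, went from an adjusted p of 0.255 to 0.0174 in edgeR without the same library. Cluster-14918.59221 had 316, 83.9 and 121.5 normalized CPM in control and 0, 38.5 and 0 in cold (adjusted p = 0.119, edgeR, and 0.0143 without cold replicate 2). Cluster-14918.92348 had 147, 236 and 63.2 in control and 60.9, 0 and 0 in cold (adjusted p = 0.233, edgeR, and 0.0118 without cold replicate 1). In both, a single cold library held all the cold counts.

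Other clusters came and went between replicates of a group. Cluster-14918.148576 had 149, 0 and 338 normalized CPM in control and 114, 0 and 0 in cold (adjusted p = 0.523, edgeR). Cluster-14918.59222 had 122, 109 and 224 in control and 0, 143.5 and 0 in cold (adjusted p = 0.506, edgeR, and 0.00442 without cold replicate 2). Both are CAMTA2 clusters, and in both the groups overlapped. Cold replicate 2 held all the cold counts of Cluster-14918.59222, and leaving out any other library gave an adjusted p of 0.548 to 0.701 in edgeR.

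Over the 8 CAMTA2 clusters of 3891 to 3936 bases, the coefficient of variation among control replicates was 30.6% to 104%, with a median of 50.6%. That of the whole CAMTA2 sum was 4.76%. Among cold replicates the single clusters had 41.8% to 173%, with a median of 156%, and the sum 11.9%. The cluster with most CAMTA2 counts also differed between libraries. It was Cluster-14918.79247 in control replicate 1 and cold replicate 3, Cluster-14918.93198 in control replicates 2 and 3, Cluster-14918.148576 in cold replicate 1 and Cluster-14918.59222 in cold replicate 2, with 22.3% to 33.6% of the CAMTA2 counts. The clusters thus varied far more than their sum. How the authors' counting divided reads among clusters with the same match was not tested.

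Within CAMTA2, the summed level of the longer clusters was higher in cold, while that of the shorter clusters was lower. The 20 clusters fell into 8 of 3891 to 3936 bases and 12 of 4325 to 5944 bases, and the latter also had lower match scores. This division was made after the counts were seen, so its values are a description. The 8 shorter clusters summed to 1930, 1749 and 1849 normalized CPM in control and to 304, 353 and 538 in cold, on the scale of the sums. The 12 longer clusters summed to 53.6, 55.0 and 40.6 in control and to 218, 217 and 121 in cold, so every cold library was above every control library. Per length the longer clusters went from 0.693 ± 0.0987 FPKM to 2.0 ± 0.63 (SD, n = 3). On the CPM of whole libraries, which leaves out the TMM factors, they went from 3.20 to 9.21.

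As a share of all CAMTA2 counts the longer clusters had 2.68% in control replicate 1 (95% interval 2.04% to 3.45%), 3.04% in replicate 2 (2.39% to 3.8%) and 2.14% in replicate 3 (1.59% to 2.80%). In cold they had 41.6% in replicate 1 (36.3% to 47.0%), 37.9% in replicate 2 (33.0% to 43.1%) and 18.3% in replicate 3 (14.9% to 22%). The intervals are exact Clopper-Pearson intervals and cover counting error only. The intervals of the control libraries overlapped one another, and cold replicate 3 lay apart from the other cold libraries. Both kinds of longer cluster had a larger share in cold. Those with the lowest match score, 2528, went from 1.61% ± 0.399 to 17.3% ± 8.58 of CAMTA2 counts, and those with a score of 3197 from 1.03% ± 0.744 to 15.4% ± 7.47 (SD, n = 3). The CAMTA2 clusters also differed in the coding segment nearest the 3′ end, which had 561 bases in 12 clusters and 570 in 8. The share of the clusters with 561 bases came to 76.1%, 50.8% and 48.7% in control and to 61.2%, 30.4% and 54.0% in cold, and the groups overlapped.

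**Figure D4:**
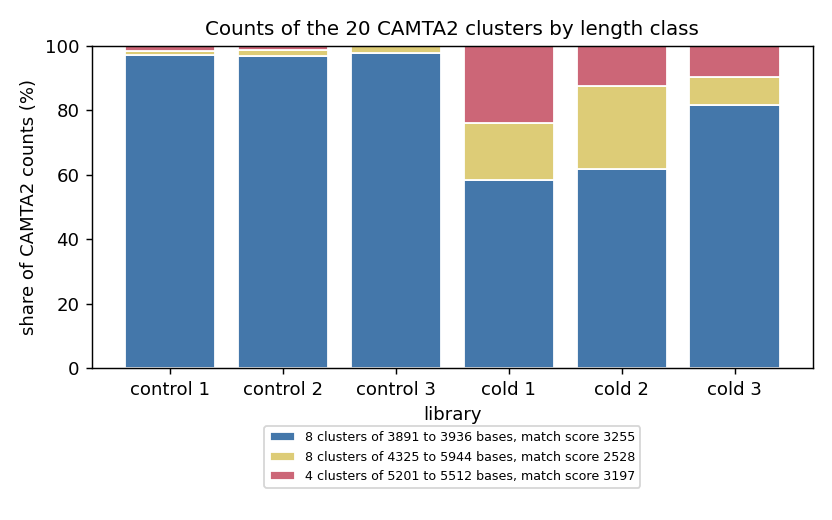
Share of CAMTA2 counts in each library, in percent, taken by the 8 clusters of 3891 to 3936 bases (bottom), the 8 with a match score of 2528 (middle) and the 4 with a score of 3197 (top). The longer clusters take 2.15% to 3.05% of each control bar and 18.3% to 41.7% of each cold bar.

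Singly, few of the longer CAMTA2 clusters had enough counts for a test. Cluster-14918.79249, of 4368 bases, had 4.46, 11.7 and 11.6 normalized CPM in control and 35.3, 53.7 and 13.5 in cold. The groups did not overlap, but cold replicate 3 was close to control. Its log2 change was 1.86 (SE 0.69), with an adjusted p of 0.0763 in edgeR, 0.0133 in DESeq2, and 0.0432 in edgeR without cold replicate 3. With a stricter filter on counts it was 0.0465 in edgeR. Cold replicate 3 was its lowest cold library, and leaving out any other library gave 0.146 to 0.223 in edgeR. Cluster-14918.102134, of 4347 bases, had 10.5, 9.54 and 5.98 in control and 25.0, 20.7 and 15.9 in cold, with a log2 change of 1.24 (SE 0.48, adjusted p = 0.0871, edgeR). Cluster-14918.103477 and Cluster-14918.103478 overlapped between groups, with log2 changes of 1.03 and 1.17 (adjusted p = 0.664 and 0.619, edgeR). None of these 4 passed the threshold in the main edgeR fit, with all libraries and the standard filter. The 8 longer clusters left untested had 0.44 to 20.5 counts over the 3 control libraries and 5.86 to 56.1 over the 3 cold libraries. The most control counts and the fewest cold counts belonged to the same cluster, Cluster-14918.154794, which went against the sum. It had 0, 0 and 17.3 normalized CPM in control and 0, 8.71 and 0 in cold. The largest of the 8, Cluster-14918.154401, had 4.44, 0 and 2.17 normalized CPM in control and 62.3, 21.2 and 0 in cold.

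The CAMTA4 sum rested on Cluster-14918.103578, which held 82.5% ± 1.46 of the CAMTA4 counts in control and 64.8% ± 9.91 in cold (SD, n = 3). Without it the other 9 clusters summed to 350 ± 22.5 normalized CPM in control and 129 ± 39.5 in cold, still without overlap. Apart from Cluster-14918.130323, given above, the other tested CAMTA4 clusters overlapped between the groups. Cluster-14918.161931 had 60.6, 41.3 and 67.6 normalized CPM in control and 15.7, 71.1 and 21.9 in cold (adjusted p = 0.477, edgeR, and 0.0493 without cold replicate 2). Cold replicate 2 was its highest cold library, and leaving out any other library gave an adjusted p of 0.433 to 0.775 in edgeR. Cluster-14918.130324 had 57.2, 32.4 and 44.9 in control and 0, 37.8 and 33.9 in cold (adjusted p = 0.587, edgeR). Cluster-14918.111551 had 38.3, 46.1 and 19.5 in control and 0, 36.3 and 59.0 in cold (adjusted p = 0.947, edgeR). In both, cold replicate 1 was at 0 and the other cold libraries lay among or above the control libraries. The 5 CAMTA4 clusters left untested had 0.68 to 37.5 counts over the control libraries and 0.01 to 13.3 over the cold libraries.

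The table puts 4 more clusters with the CAMTA4 match in the TIG family only, so they are not among the 31. They summed to 12.6, 3.53 and 15.6 normalized CPM in control and to 42.1, 22.5 and 13.9 in cold, and the groups overlapped (exact two-sided permutation test, p = 0.2). With them, the CAMTA4 sum went from 2013 ± 74.5 to 395 ± 44.4.

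Genes that act with CAMTA proteins in the cold response of Arabidopsis were read from the same edgeR fit. The table held 20 clusters of the DREB1/CBF factors, which bind the promoters of cold-responsive genes. Of the 13 tested, 7 were higher and 6 were lower in cold, against 21.9% and 23.6% of all tested clusters. Apart from Cluster-14918.12680, each cluster called higher had at most 4 counts in any control library. Such clusters passed the filter through the cold group, so these counts do not stand for all 20. Since the clusters called went both ways, the median log2 change of 5.59 is that of the least increased of the 7. The summed level of all 20 went from 1902 ± 24.8 to 7203 ± 184 normalized CPM (SD, n = 3). Most of the cold sum lay in Cluster-14918.12680, which went from 40.2 ± 9.71 to 4249 ± 107, and in Cluster-14918.12168, given below. The CAMTA family total was lower in the same cold libraries. Cluster-14918.12168, matched to a DREB1B-like protein, had 2 counts in all control libraries together and 2005 ± 79.3 normalized CPM in cold. The ratio was 3464, with a 95% counting interval of 958 to 28615. Cluster-14918.213113, also DREB1B-like, had 2 control counts and 196 ± 7.31 normalized CPM in cold, a ratio of 338 with an interval of 92.9 to 2799. Clusters matched to DREB1D-like proteins were among those that fell. Cluster-14918.69521 fell from 267 ± 5.68 to 8.18 ± 5.12 (log2 change -5.02, adjusted p = 0.000541, edgeR). Cluster-14918.161946 fell from 389 ± 52.3 to 16.6 ± 14.4 (log2 change -4.53, adjusted p = 0.0136, edgeR).

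ICE1, a bHLH factor that activates CBF genes in Arabidopsis, was matched by 9 clusters. Of the 5 tested, 2 were higher, 1 was lower and 2 did not pass the threshold, with a median log2 change of -0.82. The shares over all tested clusters are again 21.9% higher and 23.6% lower. The log2 changes of those called were 1.60 for Cluster-14918.55422 (adjusted p = 0.0210, edgeR), 0.89 for Cluster-14918.94998 (adjusted p = 0.0163) and -1.96 for Cluster-14918.167293 (adjusted p = 0.0139). The ICE1 sum went from 311 ± 11.2 to 423 ± 24.3 normalized CPM. The size of this rise depends on the scaling. Cold leaves had 136% of the control level in normalized CPM, 116% on the CPM of whole libraries and 111% in summed FPKM. Of 3 clusters matched to the stress zinc fingers ZAT10 or ZAT12, 1 was tested. It was Cluster-14918.120935, ZAT12-like, which fell from 551 ± 50.8 to 338 ± 35.4 normalized CPM (log2 change -0.70, adjusted p = 0.00521, edgeR). No cluster matched the salicylic acid regulators searched, so that arm of CAMTA function was not analysed here.

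The sums whose pattern over the 6 libraries was most like that of CAMTA2 were sought among 1640 other sums of at least 50 normalized CPM. CAMTA2 was taken because its normalized CPM, averaged over all 6 libraries, was the highest of the 3 matches. In the control libraries alone CAMTA4 was the higher, in normalized CPM and in FPKM. The measure was the root mean square difference of log2 levels centred on their mean. The nearest was zinc finger CCCH domain-containing protein 41, at 0.0693 and with a log2 change of -1.66. A GATA15-like factor followed at 0.0725 with a change of -1.72, and auxin response factor 6 at 0.0795 with a change of -1.83. These sums were picked by closeness over the same 6 libraries, so changes near that of CAMTA2 follow from the choice.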

How the data were processed

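Per the labels, leaf RNA libraries were made with an Illumina TruSeq kit, 3 per group. The submitters' processing notes name Bowtie2 2.0.6 and TopHat2 2.0.12 without their roles. What assembled and counted the reads is not given in the sources used here. A table of 10251 lines covers 9740 clusters of 80 regulator families, and 492 clusters on more than 1 line were used once. The authors' estimated counts are raw and can be fractional. Their FPKM, also deposited, take account of cluster length and library size. The deposited table also gives cluster lengths and the score of the NR match. Its up or down mark, log2 ratio and q value are the authors' own comparison and were not used.

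Counts were rounded and tested with edgeR 4.0.16 (quasi-likelihood, TMM, filterByExpr at its minimum count of 10, R 4.3.3, a model with condition alone), with Benjamini-Hochberg adjustment over 5004 clusters, or over 2371 sums of clusters sharing a match and a family, at a threshold of 0.05. Standard errors are the log2 change over the square root of F. The common biological coefficient of variation was 0.639 for clusters and 0.168 for sums. Whole-library totals were worked out from count, FPKM and length over clusters of at least 5 FPKM. Ratios and totals used exact permutation tests, which over 10 splits cannot go below 0.1. The fits were tested on simulated data. Alternatives were DESeq2 1.42.0, limma 3.58.1 on log2(FPKM + 1) and log2(FPKM + 0.1), other scalings and filters, the replicate number as a block and each library left out. Grouping by cluster length, the TIG clusters, CAMTA4 without its largest cluster and the family total with the scaling factors of the cluster fit were added after the data were seen. Sums and plots used Python 3.11.15.

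Members and gene lists were chosen with earlier results of these data known. Named clusters were those past the threshold or with at least 1% of the family level, the 2 most changed clusters per list and direction, and the 3 sums nearest to CAMTA2. Of those below 1%, Cluster-14918.102134, Cluster-14918.103477, Cluster-14918.103478 and Cluster-14918.154794 were named after their values were seen. So was Cluster-14918.12680 of the DREB1/CBF list. Clusters matching a fungal CBF1 were left out of the DREB1/CBF list by keeping to the AP2-EREBP family.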

Additional observations from a re-analysis of the deposited data

How the results depend on the processing

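The 3 sums were lower in cold and past the threshold under every alternative run, with log2 changes of -1.31 to -1.75 for CAMTA1, -1.63 to -2.15 for CAMTA2 and -2.34 to -2.83 for CAMTA4. The family total went from -1.84 to -1.97 with the scaling factors of the cluster fit, -2.13 with table totals, -2.21 with whole-library totals, -2.27 for summed FPKM and -1.95 over tested clusters only, and from -1.77 to -1.90 with each library left out. Of 18 tested clusters, 4 were lower and 0 higher. DESeq2 and the stricter filter each gave 2 higher, limma on log2(FPKM + 1) and on log2(FPKM + 0.1) each gave 8 lower, and an adjusted p under 0.01 left 2 lower. The share of all tested clusters under 0.01 was not worked out, so these 2 cannot be set against it. With each library left out, 3 to 6 were lower and 0 to 1 higher, the latter without cold replicate 3. Over the whole table, the stricter filter called 1217 of 4573 clusters higher, and limma on log2(FPKM + 0.1) called 1612 of 5004 lower. With each library left out, 5401 to 5746 clusters were tested, with 925 to 984 higher and 960 to 1240 lower. The CAMTA clusters tested in runs with another filter or fewer libraries need not be the same 18. Cluster-14918.111551 turned from -0.13 to 0.09 without control replicate 2 and to 0.45 without cold replicate 1. Over all libraries left out it ran from -0.92 to 0.45. The cause of these shifts was not tested. The cold-list clusters numbered 9 higher and 8 lower, and 7 to 9 and 6 to 9 under the alternatives. These ranges have no share over all tested clusters beside them and describe the lists only.

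No pairing by replicate number was seen, as same-numbered deviations of clusters correlated at -0.0302, -0.0144 and -0.00518. Single clusters varied widely among replicates, so this check cannot exclude a pairing. With the replicate number as a block 3 CAMTA clusters were lower, since Cluster-14918.79247 had an adjusted p of 0.0823. The sums were at -1.37, -1.70 and -2.44, and the family total was at -1.84. Over the whole table the block took the clusters called from 2276 to 1311. Whole-library totals lowered the median of all sums by 0.37 on the log2 scale, and took sums called from 829 higher and 871 lower to 671 and 1106. Limma on log2(FPKM + 1) gave 683 and 1141. Depth limits the 13 untested clusters, most of all in cold, where 3 counts are worth 0.210 to 0.229 CPM of a whole library.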
